A study of Mus musculus with 6 samples.

Results

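The Ifit genes encode interferon-induced proteins with tetratricopeptide repeats, and the group described here is Ifit1, Ifit2, Ifit3 and Ifit3b, 4 of the 21955 genes counted. They were taken by symbol, but the family was selected on the log2 fold changes of these same libraries, in which an earlier look had placed Ifit3 and Ifit3b among the largest decreases, so their own difference between the groups is given as a description without a test. The cells were neutrophils of the dura mater (the tough outer sheet of the meninges) from mice of genotype WT that had met a social threat. RNA was sequenced in 3 libraries labelled female and 3 labelled male, all of them exposed. The labels give no age, strain or unexposed group, and do not say whether a library is 1 animal or a pool.

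Ifit genes are nearly silent in resting cells and are switched on by type I and type III interferons. The receptor kinases JAK1 and TYK2 activate STAT2, which joins IRF9 in a complex that binds the interferon-stimulated response element of the promoter; IRF3, activated by sensors of viral nucleic acid, can bind the same element directly. IFIT1 binds viral RNA whose cap lacks ribose methylation and keeps it from being translated, IFIT2 and IFIT3 associate with it, and in human cells IFIT3 stabilises the binding of IFIT1 to RNA. In mice, Ifit3b is a close copy of Ifit3.

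The 4 genes and a pair of relatives, Ifit1bl1 and Ifit1bl2, stand side by side on chromosome 19 in the order Ifit2, Ifit3, Ifit1bl1, Ifit3b, Ifit1bl2 and Ifit1. The members lie on the plus strand and both relatives on the minus strand (GENCODE M21, build GRCm38). Coding sequences of Ifit3 and Ifit3b, 1209 bases each, are 99.1% identical and differ at 11 bases, whereas Ifit1 and Ifit2 are 56.5% identical, and Ifit2 and Ifit3 56.2%. Ifit1bl1 and Ifit1bl2 are 87.5% identical to each other and 74.1% and 73.8% identical to Ifit1.

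Promoters were searched on both strands for GAAA, any 2 bases and GAAA again, the core of the interferon-stimulated response element, in RefSeq windows from 250 bases before to 50 bases after each start (build GRCm38.p6). All 6 genes had a window, and Ifit2, Ifit1bl1 and Ifit1bl2 had 2 windows each. The motif occurred at 2 places in the windows of Ifit1, Ifit3 and Ifit3b, at 2 places in the first window of Ifit1bl2, and at 1 place in each window of Ifit1bl1. Neither window of Ifit2 nor the second of Ifit1bl2 held these letters. Of 27025 genes with a window, 3.99% held the motif and 0.266% held it at 2 or more places. The letters TTCNNNGAA, the core of the gamma-activated site, share no position with it in these windows and occurred once, in the first window of Ifit2, against 9.55% of all genes. The stretches with the motif are printed below because they set the members beside each other, with each match in capitals; in the strand printed the motif appears as its reverse complement, TTTC, any 2 bases and TTTC.
Ifit3, chr19:34583359-34583528, plus strand: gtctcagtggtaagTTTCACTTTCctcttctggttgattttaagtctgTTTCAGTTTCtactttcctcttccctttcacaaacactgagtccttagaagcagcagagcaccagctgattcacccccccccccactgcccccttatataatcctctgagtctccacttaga
Ifit3b, chr19:34607755-34607924, plus strand: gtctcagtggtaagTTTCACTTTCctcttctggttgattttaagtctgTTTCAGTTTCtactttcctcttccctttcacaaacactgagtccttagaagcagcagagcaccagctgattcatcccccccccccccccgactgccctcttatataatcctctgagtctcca
Ifit1 and Ifit1bl2, chr19:34640744-34640888, plus strand: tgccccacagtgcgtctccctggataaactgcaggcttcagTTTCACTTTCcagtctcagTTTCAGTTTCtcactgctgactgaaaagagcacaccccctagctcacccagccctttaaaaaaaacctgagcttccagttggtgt
Ifit1bl1, chr19:34601969-34602138, minus strand: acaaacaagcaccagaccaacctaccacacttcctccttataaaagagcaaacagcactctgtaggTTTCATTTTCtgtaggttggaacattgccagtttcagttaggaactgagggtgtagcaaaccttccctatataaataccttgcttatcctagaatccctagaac
The Ifit3 and Ifit3b stretches are identical over the first 121 bases, both matches included. The third stretch is the whole of the 145 bases between the starts of Ifit1 and Ifit1bl2, which are read in opposite directions away from it, so that both of its matches lie before both genes.

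All 4 members passed the filter on low counts. Levels are CPM, counts scaled to library size, after TMM correction for differences in composition. Summed over the 4 genes the level was 42.7, 44.1 and 41.8 CPM in the libraries labelled female, against 108, 113 and 115 CPM in those labelled male. The groups did not overlap, and the log2 ratio of their means was -1.38. These sums rest on 807 to 875 counts per library labelled female and 1909 to 1977 per library labelled male.

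Ifit3 (ENSMUSG00000074896) had 8.15, 9.93 and 9.82 CPM in the libraries labelled female, against 29.4, 34.96 and 36.8 CPM in those labelled male. Its log2 fold change was -1.85 (SE 0.12), the lowest of the 4, and 3.62-fold on the linear scale. Ifit3b (ENSMUSG00000062488), its copy, had 2.43, 2.72 and 2.18 CPM in libraries labelled female and 7.68, 8.16 and 7.92 CPM in libraries labelled male, a log2 fold change of -1.69 (SE 0.19). Every female-labelled value of both genes lay below every male-labelled one. Ifit3b rests on 44 to 54 counts per library labelled female and 133 to 143 per library labelled male.

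Ifit1 (ENSMUSG00000034459), which binds capped viral RNA, had 6.88, 5.09 and 6.50 CPM in libraries labelled female and 19.2, 16.6 and 19.8 CPM in libraries labelled male. The log2 fold change was -1.59 (SE 0.14). Female replicate 2 and male replicate 2 were each the lowest of their group for this gene, and the groups were well apart.

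Ifit2 (ENSMUSG00000045932), which acts with IFIT1 and IFIT3 and is also known as a pro-apoptotic factor, had 25.2, 26.4 and 23.3 CPM in libraries labelled female, against 51.6, 53.0 and 50.2 CPM in libraries labelled male. It had the smallest difference of the 4, a log2 fold change of -1.05 (SE 0.079), and the most counts. Its coefficient of variation within groups was 6.18% in libraries labelled female and 2.74% in libraries labelled male, against 15.3% and 9.26% for Ifit1.

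In all 4 members the groups did not overlap, a pattern shown in this direction by 15.0% of the 11903 genes tested. Since this contrast chose the members, nothing is read from that count. The median log2 fold change of the 4 was -1.64, and that of all genes tested was 0.0016.

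**Figure D1:**
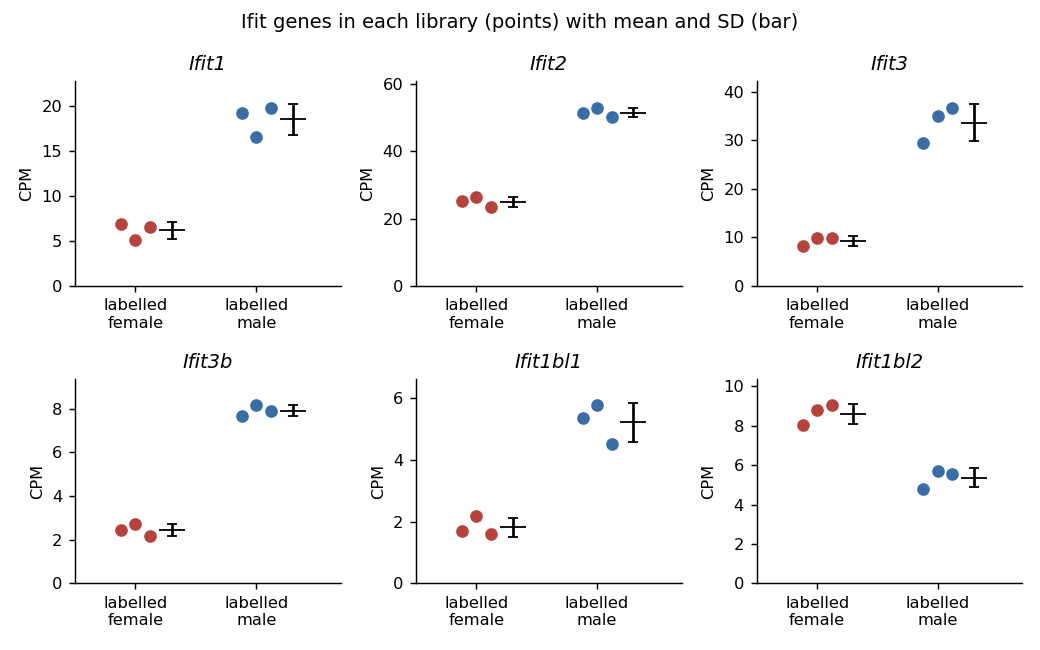
TMM-scaled CPM of the 4 Ifit members and of Ifit1bl1 and Ifit1bl2 (vertical axes, each from 0) in the 3 libraries labelled female (left) and the 3 labelled male (right); points are libraries and the bar beside them is the mean with its SD. The points of the 2 groups do not overlap in any panel, and Ifit1bl2 is the only gene with the higher values in the libraries labelled female. Of all genes tested 15.0% show no overlap as lower and 15.9% as higher.

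The make-up of the family's counts is given as a description. The contrast that chose the family, with Ifit3 and Ifit3b among its largest decreases, also sets these shares and ratios. Nothing further is read from their lack of overlap. Ifit2 held 58.2 ± 2.15% of the counts of the 4 genes in libraries labelled female and 46.2 ± 2.15% in libraries labelled male (SD, n = 3 each). Ifit3 held 21.7 ± 2.31% in libraries labelled female and 30.1 ± 2.52% in libraries labelled male. There were 3.10, 2.65 and 2.37 Ifit2 counts per Ifit3 count in the libraries labelled female, against 1.76, 1.52 and 1.37 in those labelled male, so the groups did not overlap in this ratio. The shares of Ifit1 were 14.4 ± 2.49% in libraries labelled female and 16.6 ± 1.65% in libraries labelled male, ranges that overlap. Ifit3 had 3.35, 3.65 and 4.50 counts per Ifit3b count in libraries labelled female and 3.82, 4.29 and 4.64 in libraries labelled male, which overlap too.

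Between genes, levels were compared per kilobase of exon (RPKM). In libraries labelled female Ifit2 had 6.36 ± 0.393 RPKM and Ifit3 5.33 ± 0.572 RPKM, and their ranges of 5.94 to 6.71 and 4.67 to 5.69 RPKM lay just apart, but overlapped without TMM scaling (5.76 to 7.01 and 4.76 to 5.94 RPKM). Ifit1 with 2.32 ± 0.354 and Ifit3b with 1.22 ± 0.135 RPKM followed. In libraries labelled male the order was Ifit3 (19.3 ± 2.21 RPKM), Ifit2 (13.1 ± 0.36), Ifit1 (6.98 ± 0.646) and Ifit3b (3.96 ± 0.119), with no overlap between neighbours (SD, n = 3). With the coding length in place of the exon length Ifit2 came first in both groups, at 17.7 and 36.6 RPKM in libraries labelled female and male, above Ifit3 at 7.69 and 27.9 RPKM. Among 11889 tested genes with a length, Ifit3 stood at the 48.8th percentile in libraries labelled female and the 80.6th in libraries labelled male.

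**Figure D2:**
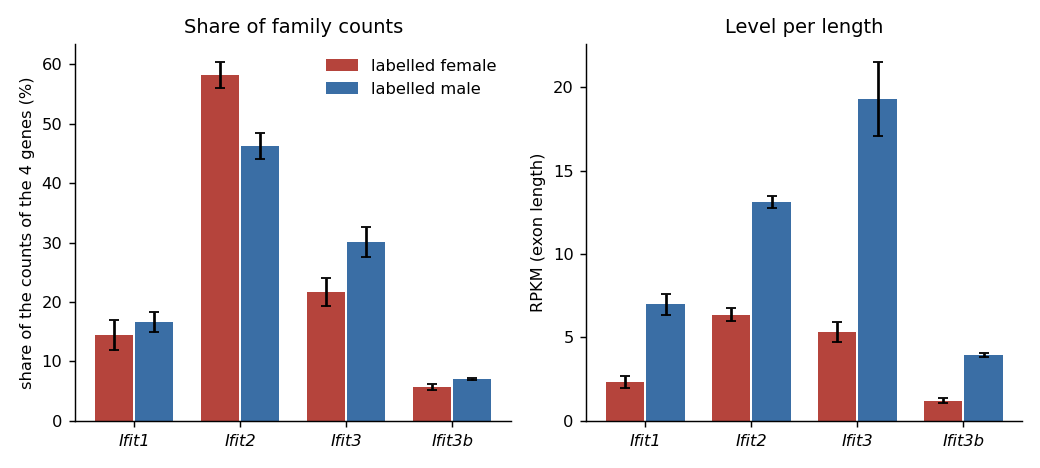
Left, share of each member in the summed counts of the 4 Ifit genes (%); right, level per kilobase of exon (RPKM); bars are means of the 3 libraries labelled female (left bar of each pair) and the 3 labelled male (right bar), with the SD. Ifit2 takes 58.2% of the counts in libraries labelled female and 46.2% in libraries labelled male, and Ifit3 is the highest per kilobase of exon in libraries labelled male, though not per coding length.

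Reads that fit both Ifit3 and Ifit3b bear on these levels, and the sources used here do not say how such reads were counted. Of all 50-base stretches of the Ifit3 transcript 51.2% also occur in Ifit3b, and of 150-base stretches 18.5%. For Ifit3b the shares were 45.0% and 16.0%. The split between the copies, their levels per length and their separate fold changes are therefore uncertain. No 50-base stretch of Ifit2 occurred in a transcript of another gene, and 7.13% of those of Ifit1 did, nearly all of them in Ifit1bl2.

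The 2 relatives, which the rule for members does not name, differed in opposite directions. Ifit1bl1 (ENSMUSG00000079339) had 1.69, 2.17 and 1.59 CPM in libraries labelled female, against 5.37, 5.76 and 4.53 CPM in libraries labelled male. It was lower in the libraries labelled female by a log2 fold change of -1.52 (SE 0.23, adjusted p = 0.000127 by edgeR's quasi-likelihood test), as 6.62% of all genes tested were. Ifit1bl2 (ENSMUSG00000067297) had 8.04, 8.77 and 9.03 CPM in libraries labelled female, against 4.80, 5.70 and 5.54 CPM in libraries labelled male. It rose in libraries labelled female, with a log2 fold change of 0.69 (SE 0.16, adjusted p = 0.00513), as 7.29% of all genes tested did. In neither of the 2 did the groups overlap, a pattern shown by 15.0% of all genes tested as lower and 15.9% as higher.

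Ifit1bl2 and Ifit1 thus differed in direction although the stretch printed above is the only sequence between their starts. Per Ifit1 count there were 1.17, 1.72 and 1.39 Ifit1bl2 counts in libraries labelled female, against 0.25, 0.344 and 0.279 in libraries labelled male. Of 50-base stretches of the Ifit1bl2 transcript 9.34% occur in another gene, most of them in Ifit1. Its call held in all 12 alternatives that tested it, with log2 fold changes of 0.62 to 0.74 and adjusted p of 0.000745 to 0.0303. Its second RefSeq start lies elsewhere, and counts per gene do not show which start was used.

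Genes on either side of the cluster were checked next. Of 8, 6 were tested, and Ch25h and Slc16a12 had at most 2 counts in a library. Of the 6, 1 was higher (16.7%, beside 7.29% of all genes tested) and none lower (6.62% of all genes). Acta2, a smooth muscle actin, rose to 7.16 ± 0.523 CPM in libraries labelled female, against 4.19 ± 0.575 CPM in libraries labelled male (log2 0.77, SE 0.18, adjusted p = 0.00546). The nearest measured neighbour, Lipa, a lysosomal lipase, had 59.6 ± 5.06 CPM in libraries labelled female and 54.8 ± 2.21 in libraries labelled male (log2 0.12, adjusted p = 0.307). Fas, the death receptor (log2 0.30), Pank1 (0.09), Kif20b (0.02) and Stambpl1 (-0.13) did not pass the test either. Lipa passed without female replicate 3 (adjusted p = 0.040), and Fas without female replicate 2 (0.0368).

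**Figure D3:**
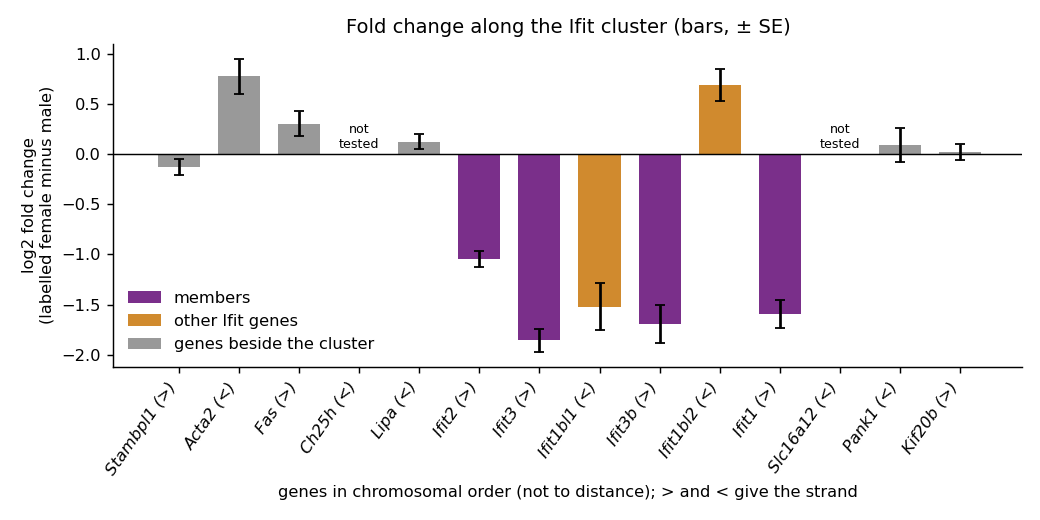
Log2 fold change, libraries labelled female minus those labelled male (vertical axis, bars with SE), of 14 genes in their order along chromosome 19, not drawn to distance; the signs > and < after a name give the plus and minus strand. The members and Ifit1bl1 lie between -1.05 and -1.85, Ifit1bl2 is at 0.69 between Ifit3b and Ifit1, and the tested neighbours lie between -0.13 and 0.77.

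The genes that carry the interferon signal to the Ifit promoters were read from a list for each step. Of 20 interferon genes, 16 had no count in any library, which allows up to 3 counts in each, and all but Ifng had at most 4. Ifng, the type II interferon, had 2.93 ± 0.823 CPM in libraries labelled female and 4.57 ± 2.15 CPM in libraries labelled male (log2 -0.64, SE 0.29, adjusted p = 0.156). It passed, as lower, with no filter on low counts.

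Of 9 receptors and Janus kinases, 1 rose and 1 fell, 11.1% in each direction beside 7.29% higher and 6.62% lower among all genes. The chains of the type I receptor did not pass the test: Ifnar1 had 80.5 ± 4.64 CPM in libraries labelled female and 85.0 ± 2.02 in libraries labelled male (log2 -0.08, SE 0.064), and Ifnar2 had 70.9 ± 2.41 CPM in libraries labelled female and 73.7 ± 2.25 in libraries labelled male (log2 -0.06, SE 0.063). The kinase gene Jak1 was higher (log2 0.27, adjusted p = 0.00796) and Tyk2 lower (log2 -0.21, adjusted p = 0.0213). Jak1 lost its call without male replicate 1 (adjusted p = 0.0723). Tyk2 lost its call without female replicate 2 (0.103) or male replicate 1, 2 or 3 (0.0661, 0.0726 and 0.11). Jak2 (-0.15), Ifngr1 (0.11), Ifngr2 (0.15), Ifnlr1 (0.22) and Il10rb (0.11) did not pass. Ifngr1 passed without female replicate 3 (0.0221), and Ifnlr1 without female replicate 2 (0.0197).

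Of 9 transcription factors of the pathway 5 fell and none rose in the fit by edgeR (3 fell without male replicate 1), a share of 55.6% beside the 6.62% of all genes. Irf7, itself induced by interferon, fell to 61.7 ± 6.48 CPM in libraries labelled female, against 138 ± 7.04 CPM in libraries labelled male (log2 -1.16, SE 0.073, adjusted p = 1.16e-09). Stat2 fell to 63.4 ± 4.05 CPM in libraries labelled female, against 114 ± 5.2 CPM in libraries labelled male (log2 -0.85, adjusted p = 2.51e-08). Irf9, which binds DNA in the complex with STAT2, had a log2 fold change of -0.31 (adjusted p = 0.00474, and 0.051 without male replicate 1), and Irf8 one of -0.30 (adjusted p = 0.000818). Irf5 (log2 -0.20, adjusted p = 0.0334) lost its call without any 1 of female replicates 1 and 2 and the male replicates (adjusted p from 0.0785 to 0.175). Irf3 (-0.10), Irf1 (-0.09) and Irf2 (-0.02) did not pass, save Irf1 without female replicate 3 (0.0463).

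Of 16 genes of nucleic acid sensing 6 fell (37.5%, beside 6.62% of all genes) and 1 rose (6.25%, beside 7.29%). Rigi, a sensor of viral RNA, had a log2 fold change of -0.44 (adjusted p = 0.000821) and the kinase Ikbke also -0.44 (adjusted p = 5.42e-05). Unc93b1, the carrier of endosomal Toll-like receptors, was lower (log2 -0.22, adjusted p = 0.0154), a call lost without female replicate 1 (0.076) or male replicate 1 or 3 (0.108 and 0.0778). Sting1, the adaptor of DNA sensing, was higher (log2 0.23, adjusted p = 0.0443). Its call was lost without female replicate 2 (0.209) or male replicate 2 or 3 (0.117 and 0.239), with a filter of 10 CPM (0.0538), without mitochondrially encoded genes (0.0514), and by DESeq2 (0.0538).

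Feedback genes went both ways, with 2 lower (33.3%, beside 6.62% of all genes) and 1 higher (16.7%, beside 7.29%) of 6 tested. Usp18, which shuts off the type I receptor, fell to 10.9 ± 1.13 CPM in libraries labelled female, against 22.9 ± 1.98 CPM in libraries labelled male (log2 -1.07, adjusted p = 1.67e-06). Socs1 fell as well (log2 -0.84, adjusted p = 0.00932, and 0.0751 without male replicate 1), and Socs3, the inhibitor of receptors that signal through STAT3, rose to 54.6 ± 2.82 CPM in libraries labelled female, against 36.8 ± 1.36 CPM in libraries labelled male (log2 0.57, adjusted p = 1.54e-05).

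Of 46 other interferon-stimulated genes 45 were tested, and 37 fell and none rose by edgeR (1 rose without female replicate 3, and 1 with no filter). That is 82.2% beside the 6.62% of all genes, with a median log2 fold change of -0.64. The most abundant that fell were Ly6e (log2 -0.28), Sp100 (-0.27), Trim30a (-0.35) and Slfn5 (-0.82). Among the others that fell, Oasl1 (-1.78), Ifi44 (-1.63), Mx2 (-1.51) and Mx1 (-1.47) lay within the members' range of -1.05 to -1.85. Isg15 (-1.60), Rsad2 (-1.16), Oasl2 (-1.12) and Ifi205 (-1.08) did so too, and Phf11d (-2.17) lay below all 4 members. Isg15, Rsad2, Oasl2, Ifi205 and Phf11d were named after their values were seen. Members and lists are drawn from the same libraries and were chosen with earlier results known, so the list is no independent support.

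**Figure D4:**
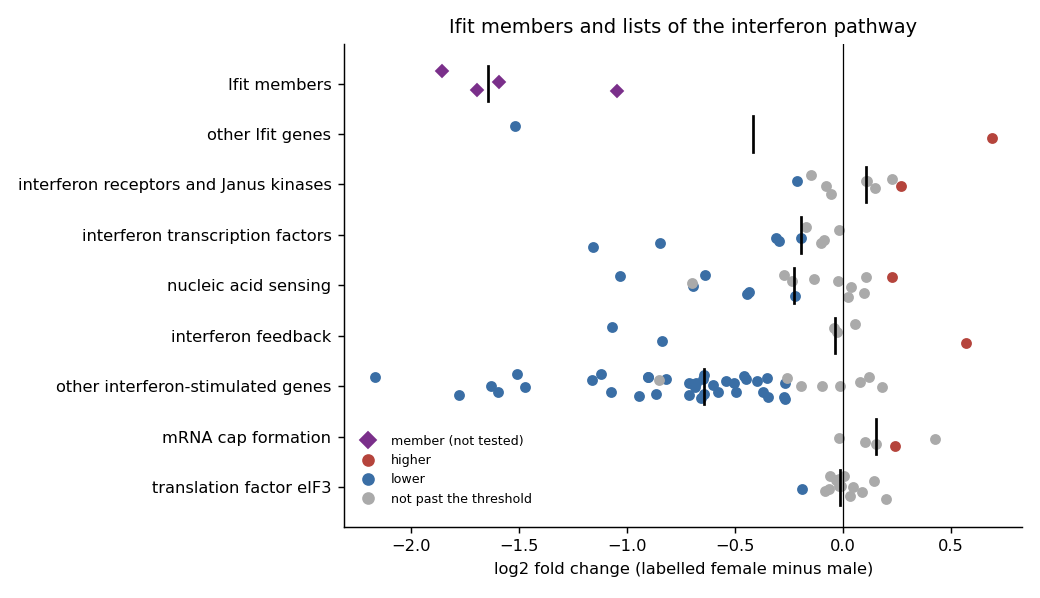
Log2 fold change, libraries labelled female minus those labelled male (horizontal axis), of each tested gene of the interferon pathway by list; diamonds are the Ifit members, circles are coloured by edgeR's call, and black bars are list medians. The medians of receptors and kinases (0.11), cap formation (0.15) and eIF3 genes (-0.01) lie close to 0, and the other interferon-stimulated genes have a median of -0.64.

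Genes of the cap and of translation, on which IFIT proteins act, mostly did not pass the test. Of 5 genes that build the mRNA cap, 1 was higher (20.0%, beside 7.29% of all genes). This was Ramac, which activates the cap methyltransferase Rnmt (log2 0.24, adjusted p = 0.0151). Its call was lost without male replicate 2 (0.0695) or 3 (0.0653). Cmtr1, which adds the ribose methyl group that IFIT1 reads as self, had 5.13 ± 0.88 CPM in libraries labelled female and 3.81 ± 0.845 CPM in libraries labelled male (log2 0.42, SE 0.22, adjusted p = 0.21). Cmtr2 (0.15), Rngtt (0.10) and Rnmt (-0.02) did not pass. Of 14 genes of the translation factor eIF3, which mouse Ifit1 and Ifit2 bind, 1 fell, a share of 7.14% close to the 6.62% of all genes. It was Eif3f (log2 -0.19, adjusted p = 0.042). That call was lost without any 1 library other than female replicate 3 (adjusted p from 0.0764 to 0.199). None rose, but 2 did without female replicate 3, and 1 did with no filter or with the replicate number as a block.

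Genes with the pattern nearest to the members were found by the root mean square difference, over the 6 libraries, between a gene's log2 CPM centred on its mean and the average of the 4 members. Mx1 and Mx2, dynamin-like antiviral GTPases, were the nearest of 10556 genes, each at 0.07. Mx1 had 40.1 ± 2.42 CPM in libraries labelled female and 112 ± 2.66 CPM in libraries labelled male. Next came Ifi213 (0.087), Gadd45b (0.11), Hspa1b (0.12), Fam71a (0.13), Ifi206 (0.13), Ifi44 (0.14), Oasl1 (0.15) and Ifit1bl1 (0.17). The members themselves stood at 0.1 (Ifit3b), 0.16 (Ifit1), 0.2 (Ifit3) and 0.25 (Ifit2), so that each of these 10 genes except Ifit1bl1 was nearer to the average than Ifit1 was. Of the 10, 4 (Mx1, Mx2, Ifi44 and Oasl1) are on the list of other interferon-stimulated genes. Ifi213, Ifi206, Fam71a, Gadd45b, a stress-induced regulator, and Hspa1b, an inducible heat shock protein, are on none of the lists. The lists hold chosen genes only, so absence from them does not place a gene outside the interferon response. The order rests on the same contrast and is a description.

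Tested genes other than the Ifit members with the response element core in a RefSeq window numbered 373. Of these, 14.7% were lower in the libraries labelled female, beside 6.62% of all genes tested, and 5.36% were higher, beside 7.29%. The relatives Ifit1bl1, called lower, and Ifit1bl2, called higher, are counted among the 373. Of 30 with the motif at 2 or more places, 9 were lower (30.0%) and 2 higher (6.67%, close to the share of all genes), with Ifit1bl2 among the higher. Among 35 other interferon-stimulated genes with a window, 18 held the motif, and genes of that list were not taken out of the sets above. A match is a run of letters and no evidence of binding.

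Total counts ranged from 17098026 to 20778410 per library. The Y-linked genes Ddx3y, Eif2s3y, Kdm5d and Uty summed to 312 to 328 CPM in libraries labelled female and 307 to 318 CPM in libraries labelled male, which goes against the label female, so groups are named by label only. Neutrophil markers such as S100a8 and S100a9 were abundant. Of 9, 7 were higher in the libraries labelled female (77.8%, beside 7.29% of all genes), and 4 without male replicate 1, 2 or 3. Their sums were 54101 to 69652 CPM in libraries labelled female, against 47906 to 52987 CPM in libraries labelled male.

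Markers of other cell types were read beside the members. Among all genes tested 6.62% were lower and 7.29% higher. The share lower was 62.5% of dendritic cell, 83.3% of B cell and 14.3% of T cell markers, the last being 1 gene. The share higher was 20.0% of monocyte and macrophage and 66.7% of erythroid markers. Dendritic cell markers summed to 188 to 196 CPM in libraries labelled female, against 280 to 293 CPM in libraries labelled male. Of these 8 markers 5 were lower; the most abundant, Siglech, a marker of interferon-producing plasmacytoid cells, had 91.8 ± 5.9 CPM in libraries labelled female, against 142 ± 5.93 CPM in libraries labelled male. Xcr1 reached at most 1.19 CPM and Itgae 1.21 CPM, and no marker was at 0 in all libraries. B cell markers summed to 136 to 190 CPM in libraries labelled female, against 225 to 282 CPM in libraries labelled male, with 5 of 6 lower. Monocyte and macrophage markers were at 2371 to 2427 CPM in libraries labelled female, against 2125 to 2197 CPM in libraries labelled male. Of 10, 2 were higher (1 without female replicate 1 or 2 or male replicate 2 or 3) and 8 did not pass. The 2 were Ccr2 (log2 0.52, adjusted p = 5.32e-06 by edgeR) and Adgre1 (log2 0.24, adjusted p = 0.0354). The most abundant of the 10, Ly6c2, had a log2 fold change of -0.04. Of 7 T cell markers 1 was lower (Cd4, log2 -0.55, with adjusted p = 0.0816 without male replicate 2), and of NK cell markers (led by Nkg7, -0.01), tested fibroblast markers (Col1a1, -0.19) and tested endothelial markers (Pecam1, -0.20) none passed by edgeR. Leaving out female replicate 3 gave 1 lower fibroblast marker, and leaving out female replicate 2 (Pecam1, 0.0449) or male replicate 1 gave 1 lower endothelial marker. Erythroid markers were higher in 4 of 6, Hbb-bs by a log2 fold change of 1.54. Mitochondrially encoded genes took 6.42 to 8.49% of counts in libraries labelled female and 10.7 to 13.1% in libraries labelled male. The part of these shifts in the Ifit values was not tested, and in bulk RNA fewer cells of a type and less RNA per cell cannot be told apart.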

How the data were processed

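Poly-A RNA was sequenced from 3 libraries labelled female and 3 labelled male. The authors deposited unnormalized counts for 21955 Ensembl identifiers. Per the submitters' processing notes cutadapt 1.15, HISAT2 2.0.5 and GRCm39 were used. The sources used here name no counting tool or treatment of shared reads, and the labels' protocols name no strand-marking step, so overlapping genes on opposite strands cannot be told apart.

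Symbols came from GENCODE M21 (21898 matched), exon and coding lengths from the same release, and promoter sequences from RefSeq tables of GRCm38.p6. The test was edgeR's (version 4.0.16, R 4.3.3) quasi-likelihood F test after TMM, with group as the only term, on the 11903 genes that filterByExpr kept at its minimum of 10 counts, and p was adjusted by Benjamini-Hochberg with a threshold of 0.05. Log2 fold changes are female minus male, and each SE follows from the change and its F statistic. The members and lists were chosen with earlier results of these data known. Genes named are the members, their relatives and neighbours, receptors, kinases, transcription factors and cap genes, the 4 most abundant called genes of each other pathway list, the 10 nearest patterns and the most abundant marker of each other cell type; further genes, markers and Y-linked genes were named after their values were seen, and some items of these lists are not reported here. Libraries are not said to be separate animals; p-values therefore reflect library spread alone, which may be technical. No library was a duplicate of another of its group (chi-square over degrees of freedom 4.1 to 16.5). The procedure was tested on simulated data. Alternatives were DESeq2 1.42.0 and its size factors, limma-voom 3.58.1, other filters, removal of mitochondrially encoded genes, a replicate block and leaving out each library.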

Additional observations from a re-analysis of the deposited data

How the results depend on the processing

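The 4 Ifit members kept their direction in every alternative that held them (a filter of 10 CPM removed Ifit3b and both relatives) and moved by less than the spread between libraries: log2 fold changes ranged from -1.68 to -1.47 for Ifit1, -1.09 to -0.999 for Ifit2, -1.94 to -1.77 for Ifit3 and -1.77 to -1.61 for Ifit3b, each over all alternatives run, leaving out a library included. Ifit1 and Ifit3 met the filter of 10 CPM in 3 libraries only through the libraries labelled male. Nothing is read from their direction under that filter. No scaling moved the median of all genes by over 0.1. Without 1 library, 439 to 1439 genes were higher and 467 to 1269 lower, against 868 and 788 with all, the highest counts both without female replicate 3; among the pathway genes 45 to 55 were lower and 4 to 11 higher, against 53 and 6, and with a filter of 10 CPM 3 were higher. With the coding length, levels were 4.43 and 13.4 RPKM for Ifit1, 17.7 and 36.6 for Ifit2, 7.69 and 27.9 for Ifit3 and 2.02 and 6.55 for Ifit3b, in libraries labelled female and male. With a minimum of 3 log2 CPM, 8 of the 10 nearest genes were kept. Same-numbered libraries deviated together little (correlations -0.039, 0.065 and 0.063), so the numbers were not taken to pair them; with the replicate block 1007 genes were higher and 914 lower, and Ifit3 had a log2 fold change of -1.86. Depth limits Ifit3b and Ifit1bl1 most, with at most 54 and 43 counts in a library labelled female.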
